A study of Mus musculus with 2 samples.

Results

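Fibroblast growth factor (FGF) signalling was examined through 10 genes in mouse embryonic fibroblasts (MEFs) lacking Bmi1 and in wild-type MEFs. The genes were the ligands Fgf2, Fgf7 and Fgf10, the receptors Fgfr1, Fgfr2 and Fgfr3, and the feedback inhibitors Spry1, Spry2, Spry4 and Dusp6. They were chosen by name, with earlier results of these data known. Every probe set that the array annotation assigned to exactly 1 gene of this list was taken. This gave 20 probe sets of the 45101 on the array, and the 10 genes were among 18194 with a symbol. Of the 20 probe sets, 13 were above the lower limit used here on both arrays, 2 were above it only in wild-type cells and 5 were below it on both.

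RNA was compared between 1 culture of Bmi1 null MEFs and 1 culture of wild-type MEFs, each on a single Affymetrix mouse expression array. Bmi1 is a subunit of Polycomb repressive complex 1 that stimulates ubiquitylation of histone H2A. Per the methods of the study the MEFs came from littermates, and both groups carried a TBX2 transgene delivered from a pBabe vector, which immortalised them. The labels gave both lines as male and C57BL/6, untreated, and grown in serum, and each genotype was represented by 1 immortalised line. Neither genotype had a replicate, so no test could be run, and every difference given is one between 2 arrays. Genotype, line, culture and array cannot be told apart.

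The targeted gene was read before the members. Bmi1 read 2146 in null and 9933 in wild-type cells at probe set 1417493_at, 4.63-fold lower, and 831 in null and 931 in wild-type cells at 1448733_at. The sources used here do not place either probe set against the deletion. Y-linked signal was missing from the null array although its label is male, with Eif2s3y at 23.3 in null and 1683 in wild-type cells and Uty and Kdm5d below 100 only in null cells. Xist, which is transcribed from the inactive X of female cells, was dim on both arrays, at 124 in null and 153 in wild-type cells. Loss of the Y chromosome in culture was not tested. Of 9 fibroblast markers matched, Thy1 was below 100 in null cells and Lum in wild-type cells, while Vim read 19233 in null and 19519 in wild-type cells. The largest gaps in signal on this list were in a pair of collagen genes. Col3a1 read 20209 in null and 4617 in wild-type cells, and Col1a1 read 14841 in null and 6860 in wild-type cells. Of the 9 markers, 3 passed 2-fold upwards, 1 passed it downwards and 5 stayed under it. The summed signal of the fibroblast list was 107542 in null and 84261 in wild-type cells. That of 6 mesothelial markers was 11988 in null and 3535 in wild-type cells and that of 7 cartilage markers was 4780 in null and 1723 in wild-type cells. On the null array most of the mesothelial sum came from Gpm6a, at 8828 in null and 4.52 in wild-type cells. Most of the cartilage sum on that array came from Col11a1, at 3794 in null and 729 in wild-type cells. The mesothelial marker Upk3b read 1693 in null and 188 in wild-type cells. Other markers of the same lists went the other way. Msln read 1031 in null and 3006 in wild-type cells, and made up most of the wild-type mesothelial sum. Sox9 read 476 in null and 731 in wild-type cells, close to Col11a1 on the wild-type array. Of 8 simple epithelial markers, 7 were below 100 on both arrays, Cdh1, Krt8 and Esrp1 among them, and the list summed to 1099 in null and 340 in wild-type cells. The sums of 6 endothelial markers were 403 in null and 441 in wild-type cells. Those of 6 macrophage and blood markers were 961 in null and 1568 in wild-type cells. The largest difference in the macrophage and blood list was in Cd14, at 453 in null and 1012 in wild-type cells. Ptprc, Cd68 and Lyz2 of that list were below 100 on both arrays. No marker sum is a level of a cell type, since probe sets differ in response. The part of cell composition in the results was not tested. Fewer cells of a type and less RNA per cell cannot be told apart in such cultures.

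FGFs are secreted ligands that bind receptor tyrosine kinases together with heparan sulfate, and the receptors signal through adaptor proteins to RAS and the kinase ERK. ERK in turn induces its own brakes, among them the Sprouty proteins, which act upstream of ERK, and Dusp6, a phosphatase that inactivates ERK in the cytoplasm. In embryos, mesenchymal cells make Fgf7 and Fgf10, and these act mainly on a splice form of Fgfr2 found in neighbouring epithelia, whereas mesenchymal cells respond to other FGFs through other receptor forms.

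At the probe set chosen to stand for each gene, 4 of the 10 genes, or of the 8 measured, differed at least 2-fold, against 10.9% of 11766 measured genes. They are the genes whose start regions are shown next. Fgf7 and Fgf10 were lower in null cells, and Spry1 and Fgfr2 were higher. The windows run from 250 bases before to 50 after the annotated start in the RefSeq table of GRCm38.p6, which held 8 of the 10 genes. Capitals mark CpG dinucleotides, the sites of DNA methylation, because the study sorted promoters by CpG density. The Fgf7 window is chr2:126034408-126034707 (+), that of Fgf10 is chr13:118714449-118714748 (+), that of Fgfr2 is chr7:130266759-130267058 (-) and that of Spry1 is chr3:37639697-37639996 (+).
Fgf7: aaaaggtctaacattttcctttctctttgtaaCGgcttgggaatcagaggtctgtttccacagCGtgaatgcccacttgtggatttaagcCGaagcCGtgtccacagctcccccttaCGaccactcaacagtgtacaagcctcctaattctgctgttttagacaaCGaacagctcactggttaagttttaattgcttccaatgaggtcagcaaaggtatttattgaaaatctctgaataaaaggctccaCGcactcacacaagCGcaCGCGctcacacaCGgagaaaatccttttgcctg
Fgf10: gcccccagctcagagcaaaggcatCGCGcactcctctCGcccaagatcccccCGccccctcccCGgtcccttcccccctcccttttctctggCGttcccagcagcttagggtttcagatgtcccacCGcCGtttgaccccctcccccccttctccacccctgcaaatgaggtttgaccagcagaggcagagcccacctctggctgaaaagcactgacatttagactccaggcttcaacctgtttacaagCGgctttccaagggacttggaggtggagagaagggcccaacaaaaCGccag
Fgfr2: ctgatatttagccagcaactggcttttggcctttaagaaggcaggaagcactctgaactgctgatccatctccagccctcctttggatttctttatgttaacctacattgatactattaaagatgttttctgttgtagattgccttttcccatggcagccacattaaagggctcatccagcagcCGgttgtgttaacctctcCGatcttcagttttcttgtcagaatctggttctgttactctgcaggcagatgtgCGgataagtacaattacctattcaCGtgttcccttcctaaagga
Spry1: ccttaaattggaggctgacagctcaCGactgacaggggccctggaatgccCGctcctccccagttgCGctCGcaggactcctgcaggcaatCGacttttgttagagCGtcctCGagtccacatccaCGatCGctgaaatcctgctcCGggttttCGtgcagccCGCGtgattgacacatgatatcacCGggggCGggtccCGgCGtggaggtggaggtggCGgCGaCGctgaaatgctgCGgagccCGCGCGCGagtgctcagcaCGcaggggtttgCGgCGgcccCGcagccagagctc

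The Spry1 window held 29 CpGs, and 12.9% of 32851 windows in the table held at least as many. The Fgf7 window held 11 CpGs and the Fgf10 window 10, against a median of 7 over all windows. The Fgfr2 window held 4, at a GC content of 43.7%. Among genes that differed less than 2-fold, the windows of Spry2 and Dusp6 held 28 and 19 CpGs, so the count did not separate them from Spry1. Of the other members, Fgf2 had 24 CpGs in its window and Fgfr3 had 26 and 30 in its pair of windows. Letters of an ETS core (CCGGAAG), an AP-1 site (TGANTCA) and a TATA box (TATAAA), searched on both strands, were in none of these 9 windows, against 8.86%, 7.81% and 13.6% of all windows. A GC box (GGGCGG), found in 35.7% of all windows, occurred once each in the windows of Spry1, Fgf10 and Fgf2, and 4 and 2 times in those of Fgfr3. These are matches of letters in a short window and not mapped sites.

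Signals below 100 on an array, which is 0.2 times its trimmed mean, were set to 100 before ratios were taken, and this limit is called the floor. A gene below the floor on both arrays has no ratio, and a ratio with 1 array below it is a bound. Precision was described by the spread between the brightest pair of probe sets of each gene with both above the floor. The SD of log2 ratio was 0.32 where the brighter probe set reached 100 to 500 (607 genes), 0.30 for 500 to 2000 (2164 genes) and 0.26 above that (1820 genes). This SD is that of pair differences scaled to a single probe set, so differences within a pair spread more widely than it. It covers probe set error only and not the spread between cultures.

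**Figure D1:**
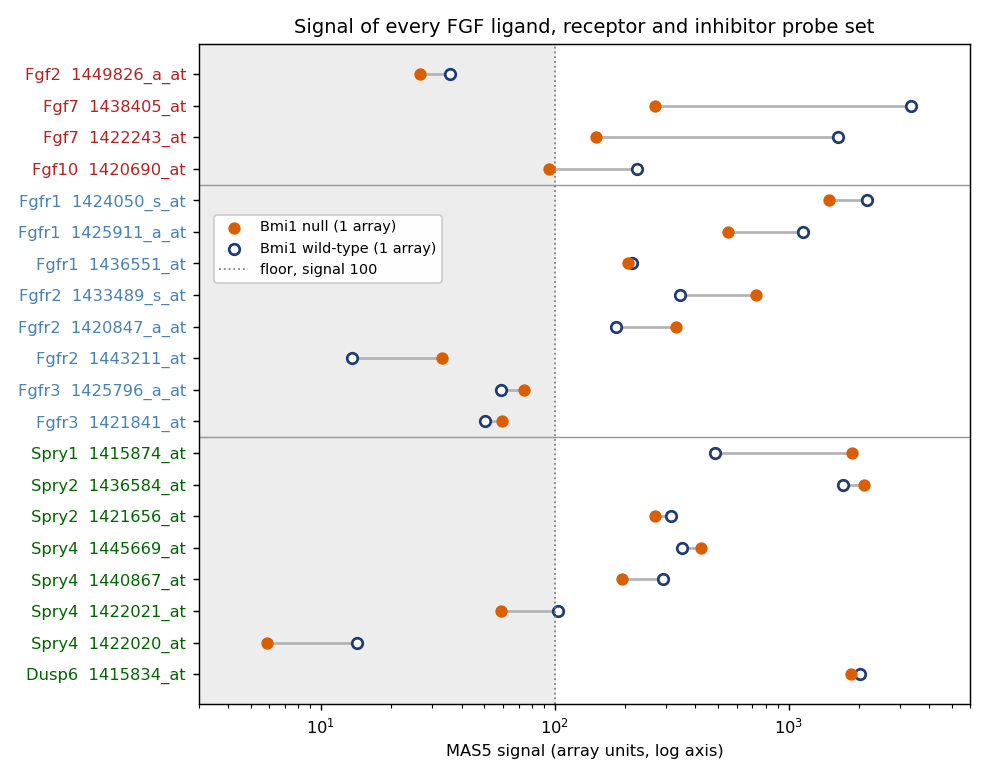
Signal of each of the 20 probe sets (rows, by gene and probe set) on the Bmi1 null array (filled points) and the wild-type array (open points), in MAS5 units on a log axis, with the region below the floor of 100 shaded. Row labels are red for ligands, blue for receptors and green for inhibitors, and the longest lines belong to Fgf7, at 269 in null and 3351 in wild-type cells, and 150 in null and 1634 in wild-type cells.

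Both measured ligands had lower signal in null cells. Fgf7, the keratinocyte growth factor, read 269 in null and 3351 in wild-type cells at probe set 1438405_at, 12.4-fold lower (log2 ratio −3.64). Its other probe set, 1422243_at, read 150 in null and 1634 in wild-type cells, 10.9-fold lower (log2 ratio −3.44). The pair of probe sets thus differed from each other by 0.20 on the log2 scale, less than the spread SD of 0.26 to 0.30 in their signal classes. Fgf7 was still above the floor in null cells at both probe sets. Among the 11766 genes measured, its ratio was the 21st from the bottom.

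Fgf10, a ligand needed for limb and lung budding in mouse embryos, was dim on both arrays. Its probe set 1420690_at read 94.8 in null and 224 in wild-type cells, at least 2.24-fold lower (log2 ratio at most −1.17), and it was the only probe set of the gene. The null signal lay just under the floor, so the fold depends on where the floor is set. With a floor of 0.4 times the trimmed mean the bound was only −0.17 on the log2 scale, and with 100 added to every signal instead of a floor the log2 ratio was −0.73. Fgf2, the basic FGF used widely as a fibroblast mitogen, read 26.5 in null and 35.5 in wild-type cells at 1449826_a_at and was not measured on either array. No direction can be given for it at these signals.

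The 3 receptor genes differed from each other in how their probe sets behaved. Fgfr1, a receptor typical of mesenchymal cells, read 1484 in null and 2166 in wild-type cells at 1424050_s_at, 1.46-fold lower (log2 ratio −0.55). At 1425911_a_at it read 553 in null and 1153 in wild-type cells, 2.08-fold lower (log2 ratio −1.06). At 1436551_at it read 205 in null and 214 in wild-type cells, 1.04-fold lower (log2 ratio −0.062). All 3 were lower in null cells, but they spanned 1.00 on the log2 scale, wider than the spread SD of a single probe set in any signal class. The suffix _a_at marks probe sets shared by transcripts of 1 gene and _s_at those that may match transcripts of several genes, and without such probe sets the Fgfr1 ratio rests on 1436551_at alone.

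Fgfr2 was higher in null cells at both measured probe sets. It read 725 in null and 345 in wild-type cells at 1433489_s_at, 2.10-fold higher (log2 ratio 1.07), and 329 in null and 182 in wild-type cells at 1420847_a_at, 1.80-fold higher (log2 ratio 0.85). These differed by 0.22, less than the spread SD of 0.30 to 0.32. Whether the epithelial or the mesenchymal splice form was read cannot be said from these files. Of the 8 simple epithelial markers, Epcam alone was measured, at 834 in null and 149 in wild-type cells, and its part in the Fgfr2 result was not tested. The remaining Fgfr2 probe set, 1443211_at, read 33.0 in null and 13.5 in wild-type cells, below the floor on both. The call of at least 2-fold was lost with the mean over both measured probe sets (log2 ratio 0.96) and with the added 100 (0.89). Without shared probe sets Fgfr2 was not measured.

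Fgfr3, a receptor best known for restraining growth of cartilage, was below the floor at both of its probe sets. It read 73.7 in null and 58.8 in wild-type cells at 1425796_a_at, and 59.4 in null and 50.2 in wild-type cells at 1421841_at. Together with Fgf2 it made up the 2 member genes without a ratio.

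**Figure D2:**
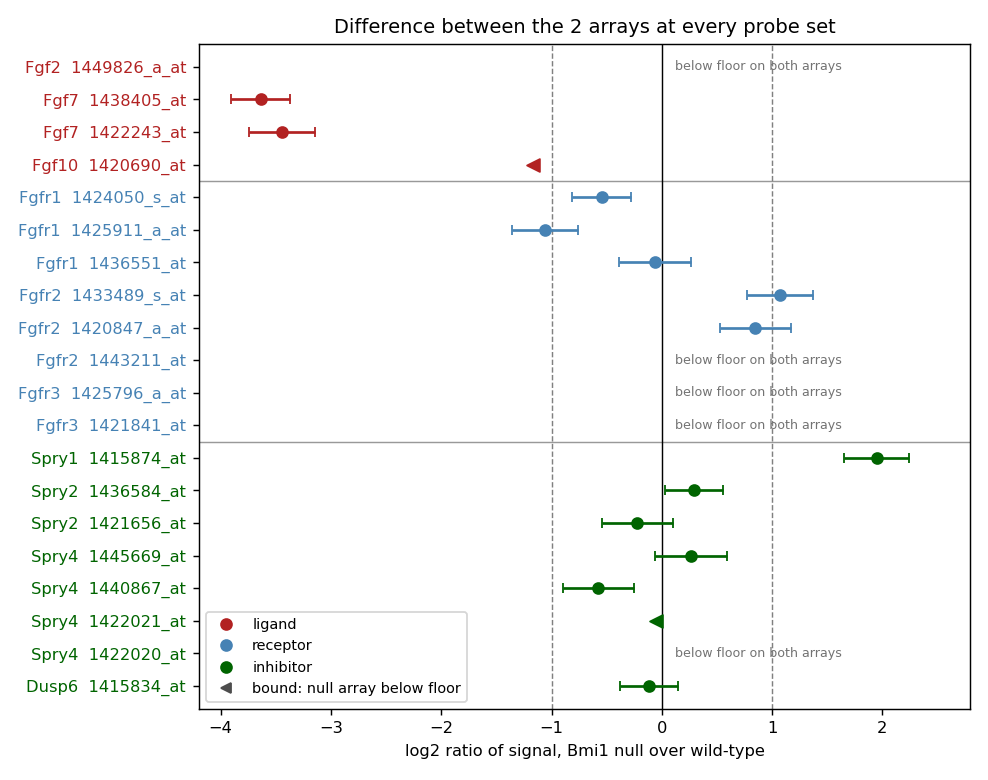
Log2 ratio of signal, Bmi1 null over wild-type (x axis), for the 15 measured of 20 probe sets (rows), with text in place of a point for the 5 below the floor on both arrays and bars of 1 SD of the spread between probe sets of 1 gene in the matching signal class. Arrowheads are upper bounds on the log2 ratio where the null array was below the floor, dashed lines mark 2-fold, and the Fgf7 points at −3.64 and −3.44 and the Spry1 point at 1.95 lie farthest from 0.

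Among the feedback inhibitors, Spry1 stood apart from the others in size. Spry1 read 1863 in null and 483 in wild-type cells at its single probe set, 1415874_at, 3.86-fold higher (log2 ratio 1.95). Its ratio was the 234th from the top of 11766 measured genes and remained past 2-fold in all 8 alternative settings, between 1.75 and 1.97. Since the gene had no other probe set, no second reading of the difference was at hand.

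Its relatives Spry2 and Spry4, which inhibit the same pathway, differed little and without a common sign. Spry2 read 2100 in null and 1715 in wild-type cells at 1436584_at, 1.22-fold higher (log2 ratio 0.29), but 269 in null and 314 in wild-type cells at 1421656_at, 1.17-fold lower (log2 ratio −0.22). Spry4 read 421 in null and 350 in wild-type cells at 1445669_at, 1.20-fold higher (log2 ratio 0.27), but 194 in null and 290 in wild-type cells at 1440867_at, 1.49-fold lower (log2 ratio −0.58). Signs of the probe sets thus disagreed within both genes, by 0.51 for Spry2 and 0.84 for Spry4. Another Spry4 probe set, 1422021_at, read 58.9 in null and 104 in wild-type cells, a bound of at least 1.04-fold lower. The remaining one, 1422020_at, read 5.88 in null and 14.2 in wild-type cells, below the floor on both.

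Dusp6, whose transcript is a common readout of ERK activity, was close to equal on the arrays. It read 1858 in null and 2017 in wild-type cells at 1415834_at, 1.09-fold lower (log2 ratio −0.12), within the spread SD of 0.26 for bright probe sets. Of all measured genes, 77.4% had a ratio farther from 0.

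Counted by gene, 4 of the 8 measured members differed at least 2-fold, against 10.9% of all measured genes. Of these, 2 were higher in null cells, against 5.73% of all measured genes, and 2 were lower, against 5.16%. The other 4 measured members differed less. Because the members were chosen with earlier results of these data known, these shares describe the list only. The median log2 ratio of the 8 was 0.074, against 0.0060 over all measured genes, so the members had no common direction. Counted by probe set, 6 of 15 measured differed at least 2-fold, against 10.2% of all measured probe sets with a symbol. Of these, 2 were higher, against 5.06% of all measured probe sets with a symbol, and 4 were lower, against 5.1%. The 4 lower probe sets were both of Fgf7, that of Fgf10 and 1 of Fgfr1.

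**Figure D3:**
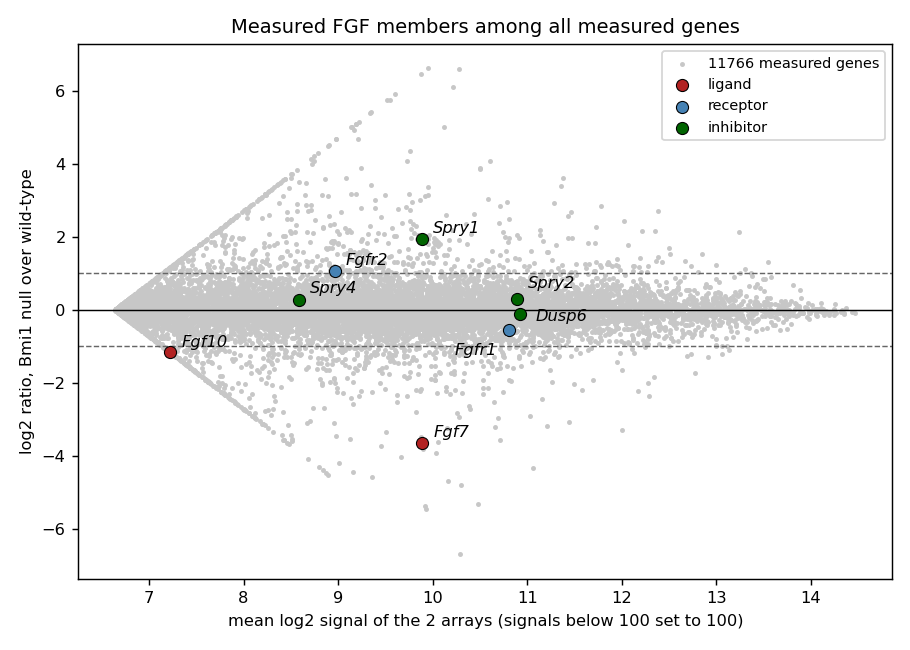
Log2 ratio, Bmi1 null over wild-type (y axis), against mean log2 signal of the 2 arrays (x axis) for 11766 measured genes (grey) and the 8 measured members (coloured by role), with dashed lines at 2-fold. Fgf7 lies at −3.64 and Spry1 at 1.95, outside the main band of genes, whereas Dusp6, Spry2 and Spry4 lie inside it.

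Of the other FGF ligands, few were measured at all. On the array were 22 ligand genes with the members included, of which 3 were above the floor in null and 5 in wild-type cells. Of the 4 measured ligands outside the members, Fgf4 alone was above the floor on both arrays, at 166 in null and 153 in wild-type cells. The other 3, Fgf3, Fgf6 and Fgf18, had only bounds, of at least 1.22-fold lower, 1.15-fold lower and 1.04-fold higher, which do not say whether they differed 2-fold. Without a floor 5 of these 19 ligands were at least 2-fold higher and 2 lower, and in each case no signal exceeded 122. Of 6 measured receptors and co-receptors outside the members, none differed 2-fold, against 10.9% of all measured genes. With so few genes, finding none is close to that share. Fgfrl1, a receptor without a kinase domain, read 1903 in null and 1330 in wild-type cells, and it and these 4 ligands are named after their values were seen.

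None of the measured components that carry the signal inside the cell differed 2-fold, against 10.9% of all measured genes. A list of this size holds few such genes at that share. All 14 matched signal transducers, from the adaptor Grb2 to the kinase Map2k1, were measured. Their log2 ratios ran from −0.64 for Nras to 0.83 for Gab1, with a median of 0.10.

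Among other feedback inhibitors of ERK signalling, a pair of phosphatases differed most. Of 9 measured, 2 were at least 2-fold lower in null cells, against 5.16% of all measured genes, and 0 were higher, against 5.73%. The median log2 ratio was −0.33, against 0.0060 over all measured genes. This list was made with earlier results of these data known, so its counts are description only. Dusp4, a phosphatase that inactivates ERK in the nucleus, read 153 in null and 1664 in wild-type cells, 10.9-fold lower (log2 ratio −3.44, or −2.80 with the added 100), at its single probe set. Dusp9, named after its value was seen, read 41.7 in null and 421 in wild-type cells, at least 4.21-fold lower, and its other probe sets gave bounds of 4.03-fold and 3.16-fold. Spred1 and Spred2, relatives of the Sprouty proteins, had log2 ratios of −0.27 and −0.16 at the probe sets standing for them. The other measured Spred1 probe sets were also lower, from −0.89 to −0.064. Those of Spred2 had both signs, at −0.34 and 0.46. Dusp6, at −0.12, thus differed by far less than Dusp4 on the same arrays.

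Genes known to respond to ERK had mixed signs with more members lower than higher. Of 9 measured, 3 were at least 2-fold lower in null cells, against 5.16% of all measured genes, and 1 was higher, against 5.73%. The median log2 ratio was −0.84, against 0.0060 over all measured genes. This list too was made with earlier results of these data known, so its counts are description only. Fosl1, which encodes the AP-1 subunit Fra-1, read 373 in null and 3480 in wild-type cells, 9.33-fold lower (log2 ratio −3.22), and was at least 6.63-fold lower at its other probe set. Etv5, an ETS factor induced by FGF in many embryonic tissues, read 807 in null and 1915 in wild-type cells, 2.37-fold lower, and was 3.43-fold and 3.44-fold lower at its other probe sets. Its relative Etv4, named after its value was seen, read 39.2 in null and 499 in wild-type cells, at least 4.99-fold lower. Fos, an immediate early gene, went the other way at 8658 in null and 3480 in wild-type cells, 2.49-fold higher. Egr1, another such gene, read 8175 in null and 8264 in wild-type cells. Spry1 and Dusp6, both induced by ERK in many cells, had log2 ratios of 1.95 and −0.12 beside these.

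Heparan sulfate enzymes were added because FGFs need heparan sulfate to bind their receptors. Of 10 measured, 1 passed 2-fold upwards in null cells, against 5.73% of all measured genes, and 0 downwards, against 5.16%, with a median log2 ratio of 0.060. This was Sulf1, which removes sulfate groups from heparan sulfate outside the cell, at 1694 in null and 106 in wild-type cells, 16.0-fold higher, and at least 11.3-fold higher at another probe set. The wild-type signal lay just above the floor, and the log2 ratio was only 3.08 when the floor was raised to 0.4 times the trimmed mean and 3.12 with the added 100. Sulf2, its relative, read 2351 in null and 1815 in wild-type cells, 1.30-fold higher.

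**Figure D4:**
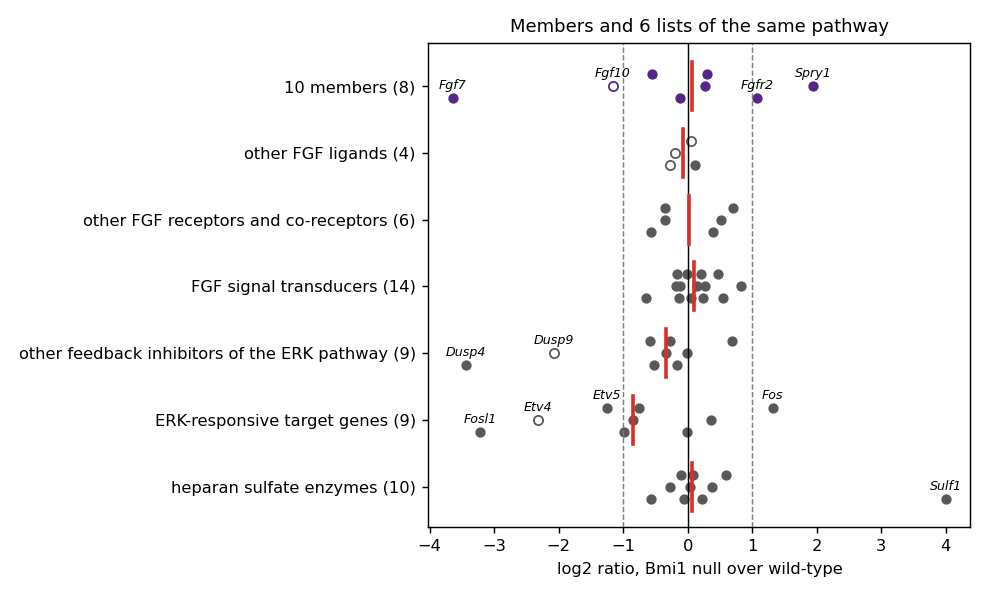
Log2 ratio, Bmi1 null over wild-type (x axis), of each measured gene (points) among the 10 members and 6 lists of the same pathway, with the number measured in parentheses, red bars at the medians and dashed lines at 2-fold. Open points are bounds, and the medians of −0.84 for ERK-responsive genes and −0.33 for other feedback inhibitors lie left of the 0.074 of the members.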

How the data were processed

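Total RNA of each culture was converted to biotinylated cRNA and hybridised to an Affymetrix mouse genome-wide 3' expression array. The authors deposited 1 linear intensity per probe set and array, computed with MAS5. Arrays had been scaled globally: leaving out the top and bottom 2%, the mean was 500 on each array. A change shared by most transcripts would therefore be lost. How MAS5 was set to scale is not given in the sources used here, and detection calls were not used.

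Of 45101 probe sets, 34958 had 1 gene symbol in the platform annotation, and 34754 of these were found in the RefSeq table of GRCm38 by Entrez identifier with 0 changed. The array annotation carried no genome build, so gene coordinates are not given, other than for the windows of the promoter table. Each gene was represented by its brightest probe set (mean of log2 signals over both arrays), and 11766 of 18194 genes were measured. No test was run, because each group had 1 array. Spike-in probe sets had null over wild-type folds of 0.890 to 1.06, and the 3' to 5' signal ratio of Actb was 1.15 in null and 1.20 in wild-type cells.

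The members and the lists were chosen with earlier results of these data known. Named were all members, Bmi1, and from each pathway list up to 4 genes differing by 2-fold or more whose higher signal reached the trimmed mean. Other genes of the pathway and marker lists that the report names fall outside this rule and were chosen after their values were seen. With 2 arrays, no likeness of pattern between genes can be measured. Ratios and spread were tested on simulated data. The changes simulated were well past 2-fold and in bright genes only, so bounds, dim genes and calls near 2-fold were not tested. The 8 alternatives were 3 other floors (none among them), a pseudocount of 0.2 times the trimmed mean, the mean over probe sets, omission of shared probe sets (suffix _s_at, _x_at or _a_at), quantile normalisation and median centring. Python 3.11.15, numpy 2.4.6, pandas 2.3.3 and matplotlib 3.10.9 were used.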

Additional observations from a re-analysis of the deposited data

How the results depend on the processing

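Of 63 values of the 8 measured member genes under the alternatives, 58 stayed within the spread between probe sets. With a pseudocount of 0.2 times the trimmed mean the log2 ratio of Fgf7 was −3.22 and that of Fgf10 −0.73, and Fgf10 was at most −0.17 when the floor was raised to 0.4 times that mean. Both settings compress ratios of dim signals by construction. Without the suffixed probe sets Fgfr1 was −0.062, from another probe set, and with the mean over probe sets Spry4 was −0.12, a change of sign of a value under 2-fold. Members at least 2-fold higher numbered 1 with the pseudocount, with the mean over probe sets and without suffixed probe sets, the call lost being that of Fgfr2. Members at least 2-fold lower numbered 1 with the pseudocount and with the floor at 0.4 times, where Fgf10 lost its call. The member median ran from −0.12 to 0.27 and so had no settled sign. Spry1 and Fgf7 kept their sign and their 2-fold call under all 8. Of the other genes named, the log2 ratio with the pseudocount was −2.80 for Dusp4, −2.92 for Fosl1 and 3.12 for Sulf1. With the mean over probe sets it was −1.19 for Bmi1 and −1.60 for Etv5. With the raised floor it was at most −3.06 for Dusp4, −1.32 for Etv4 and −1.07 for Dusp9, and at least 3.08 for Sulf1. Without a floor Fgf2 and Fgfr3 had log2 ratios of −0.42 and 0.33, from signals below 100. Without a floor 2347 genes of 18194 were at least 2-fold higher and 1580 lower, against 674 and 607 of 11766 with it. No paired analysis was possible because each group had 1 array and the result comes from no test. The number of arrays limits the precision of every value.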
